A study of Mus musculus with 3 samples.

Results

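The genes Foxa1, Foxa2 and Foxa3 encode the FOXA forkhead factors, and the peaks described here are those of HNF4A and FOXA2 at these 3 genes in fetal mouse liver. Members are all deposited HNF4A and FOXA2 regions that meet 1 of 3 windows on the mm9 assembly. The Foxa2 window is chromosome 2 from 147780000 to 147950000, the Foxa1 window chromosome 12 from 58550000 to 58720000 and the Foxa3 window chromosome 7 from 19560000 to 19650000. They held 27 regions of 21041 in the ChIP lists, made up of 15 of 11703 HNF4A peaks and 12 of 9338 FOXA2 peaks. Chromatin immunoprecipitation with sequencing (ChIP-seq) recovers DNA bound by a protein with an antibody, and a peak is a region where the recovered reads pile up. The hepatoblasts, the fetal cells that give rise to hepatocytes and to the bile duct lining, came from pooled livers of wildtype C57BL/6 mice at embryonic day 14.5 and had been enriched magnetically for the surface protein DLK1. There was 1 HNF4A library, 1 FOXA2 library and 1 library of input chromatin taken without antibody. With 1 library per antibody and pooled animals, no value below has a replicate check and no test was made.

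FOXA factors bind DNA through a winged-helix forkhead domain and can engage nucleosomal DNA, which is why they are known as pioneer factors. FOXA1 and FOXA2 act redundantly in the specification of the liver from foregut endoderm, and FOXA3 is a later family member expressed in hepatocytes. HNF4A is a nuclear receptor of hepatocytes. Genes of liver transcription factors are known to be bound by several of these factors, their own product included, so FOXA2 at Foxa2 asks about a gene's own product and HNF4A at the 3 genes about cross-binding.

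The sequence before the start sites is shown first because peaks of both factors lay at the start of Foxa2 and none at that of Foxa3; for Foxa1 this was not analysed here. Each line gives the 250 bases before a start, from RefSeq on GRCm38.p6, all on the minus strand and printed 5′ to 3′. All 3 genes were matched by symbol, and these coordinates are not those of the peak lists. Of the 3 starts of Foxa2 in the table the most upstream is printed, since the peak of each factor described below lies at that end of the gene. Capitals mark an exact match to a forkhead motif searched here, as listed below.
Foxa2, chr2:148046970-148047219: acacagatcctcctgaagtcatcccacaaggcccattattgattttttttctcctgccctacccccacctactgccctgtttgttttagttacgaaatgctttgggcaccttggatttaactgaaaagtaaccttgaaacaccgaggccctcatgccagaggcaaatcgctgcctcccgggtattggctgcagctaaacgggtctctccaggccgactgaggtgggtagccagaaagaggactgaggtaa
Foxa1, chr12:57546112-57546361: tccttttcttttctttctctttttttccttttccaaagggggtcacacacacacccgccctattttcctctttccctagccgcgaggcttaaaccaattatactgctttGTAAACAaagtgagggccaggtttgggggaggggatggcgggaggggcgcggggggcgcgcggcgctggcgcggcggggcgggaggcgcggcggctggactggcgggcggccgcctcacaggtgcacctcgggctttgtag
Foxa3, chr7:19023540-19023789: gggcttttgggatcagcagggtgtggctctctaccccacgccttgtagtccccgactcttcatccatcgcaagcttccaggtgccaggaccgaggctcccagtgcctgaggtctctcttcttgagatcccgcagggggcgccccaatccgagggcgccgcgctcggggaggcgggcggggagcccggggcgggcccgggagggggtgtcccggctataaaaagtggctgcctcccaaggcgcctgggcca

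The forkhead motifs searched on both strands were TGTTTAC, its variant TGTTTGC and the related TATTTAC. Only the Foxa1 stretch among these 3 held an exact match. Its letters GTAAACA, beginning 141 bases before the start, are TGTTTAC on the other strand. Other spellings of a forkhead site were not searched. The printed Foxa2 stretch, for example, holds TGTTTGT, which differs from TGTTTGC in its last letter. TGTTTAC occurred in 3.17% of the 32851 RefSeq start regions of the same length, and any of the 3 motifs in 9.73%. The HNF4 motif CAAAGTCCA, its variant CAAAGTTCA and the related CAAAGGTCA, which cannot match at the same position, were found in none of the 3 stretches. Any of them occurred in 1.14% of all start regions. The other two Foxa2 starts held no match to either set. Apart from the match at Foxa1, the listed motifs were absent from the 250 bases before each start, which says nothing on binding. The sequence of the peaks and of the wider windows was not analysed here. The printed Foxa2 stretch had a GC content of 50.8% with 6 CpG pairs, near the median over all start regions of 52.4% and 6. Its other starts had 67.2% with 20 pairs and 54.4% with 13. The Foxa1 stretch, at 62% and 21 pairs, and the Foxa3 stretch, at 68.8% and 18 pairs, were, like the former of these other Foxa2 starts, above the upper quartiles of 61.2% and 16.

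Foxa2 had the most peaks of the 3 genes. Its 170 kb window held 9 HNF4A and 6 FOXA2 peaks, and 4 sites carried both factors, counting a site as shared where the peaks overlap by at least 1 bp. The shared part was 44.4% of the HNF4A peaks (exact 95% binomial interval 13.7 to 78.8%), against 24.4% of the whole HNF4A list. It was 66.7% of the FOXA2 peaks (22.3 to 95.7%), against 30.7% of the whole FOXA2 list. Both intervals include the value of the whole list, so with this few peaks the share at Foxa2 cannot be told from that of the lists. These intervals cover counting error only, and neighbouring peaks are not independent.

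At the start of Foxa2 lay its highest FOXA2 peak. The gene, on the minus strand, runs from about 147868600 to about 147872700, bounds that are rounded to 100 bp. The FOXA2 peak at 147872684 to 147873020 begins within that rounding of the upper bound, which is the start, and had a score of 46. The score is a whole number the authors gave each region, undefined in the sources used here and usable only within its own list. With that score the peak ranked 406 in the FOXA2 list, tied with other peaks to a total of 24, and 95.4% of the list scored lower. The HNF4A peak there, at 147872577 to 147873104, covered the whole FOXA2 peak, and the centres were 11.5 bp apart. Its score of 26 was above 58.4% of the HNF4A list, so this site stood higher among FOXA2 sites than among HNF4A sites.

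Most other peaks of the window lay downstream of Foxa2, on the side where the long noncoding RNA gene 9030622O22Rik is the next gene in the RefSeq order. Downstream were 7 of the 9 HNF4A and 5 of the 6 FOXA2 peaks. Upstream of the start was a lone HNF4A peak at 147905983 to 147906473 with a score of 18, its centre about 33528 bp from the start. No FOXA2 peak of the window lay upstream beyond the one at the start.

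A pair of shared sites stood close together downstream of the gene, with HNF4A centres about 22.5 and 21.3 kb from the start. At the first, HNF4A at 147849995 to 147850427 (score 41) met FOXA2 at 147849956 to 147850267 (score 26), with centres 99.5 bp apart. At the next, HNF4A at 147851217 to 147851559 (score 51) met FOXA2 at 147851272 to 147851645 (score 16), with centres 70.5 bp apart. The HNF4A centres of these sites were 1.18 kb apart and the FOXA2 centres 1.35 kb. The score of 51 was the highest of HNF4A in the window and exceeded 91.7% of its list, while the FOXA2 score of 16 at the same site exceeded 52.6%. At the neighbouring site the standings were alike, 84.5% for HNF4A and 81.4% for FOXA2.

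The fourth shared site was the farthest downstream, about 85.2 kb from the start. FOXA2 at 147787306 to 147787716 (score 28, above 84.4% of its list) lay wholly inside HNF4A at 147787247 to 147787726 (score 19, above 25.6%). The order of the factors thus turned along the window. FOXA2 stood higher in its list at the start and at the farthest site, HNF4A stood higher at the site with score 51, and at the remaining site HNF4A was higher by 3.06 percentage points. Centre distances at the 4 sites, 11.5 to 99.5 bp, can be set beside a median of 59 bp over all 2879 overlapping pairs of the lists (interquartile range 26.5 to 106 bp).

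Single-factor peaks made up the rest of the Foxa2 window. HNF4A alone was found at 147794310 to 147794836 (score 21), 147819045 to 147819451 (score 31), 147824264 to 147824660 (score 48) and 147855869 to 147856407 (score 16), besides the upstream peak. The peak of score 48 stood above 90.1% of the HNF4A list, and its nearest FOXA2 centre was 14819 bp away. Over the whole list, 24.4% of HNF4A peaks overlapped FOXA2, so a lack of overlap is the usual state. FOXA2 alone was found at 147797022 to 147797540 and 147839128 to 147839434, both with a score of 13. Both single FOXA2 peaks scored lower than each of the 4 shared FOXA2 peaks, which reached 16 to 46. For HNF4A the groups overlapped, with single peaks at 16 to 48 and shared ones at 19 to 51. The FOXA2 order was not general: at Foxa1 a single peak scored 32, and at Foxa3 the shared one scored 12.

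Foxa1 had peaks of both factors but none in common within its window. Its window, of the same 170 kb, held 3 HNF4A and 5 FOXA2 peaks and 0 shared sites. With 0 of 3, the shared part of HNF4A peaks could reach 70.8%, and with 0 of 5 that of FOXA2 peaks 52.2%. These are the upper ends of exact 95% binomial intervals. The shared part of the whole lists was 24.4% and 30.7%, so these counts do not set Foxa1 apart from the lists. The place of Foxa1 on mm9 was not used here, so its peaks are given by position alone. In the RefSeq order its nearest neighbours are the pseudogene Gm2568 and Ttc6, a protein-coding gene.

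At Foxa1 the 5 FOXA2 and 3 HNF4A peaks became 3 of each in the central 90 kb and 6 of each with 50 kb added on each side, so neither factor had more peaks independently of the window. The highest FOXA2 peak, at 58597401 to 58597736, had a score of 32, above 88.5% of the FOXA2 list. At the edge of the window, 58550274 to 58550660, stood the next, with a score of 28. The peak at 58644740 to 58645074 had a score of 18, and the others were at 58622568 to 58623077 (score 13) and 58684594 to 58684879 (score 11, the lowest in that list). HNF4A reached 32 at 58606212 to 58606607, above 72.7% of its list. Its other peaks, at 58638030 to 58638674 (score 17) and 58640132 to 58640550 (score 18), were near the lowest score of the HNF4A list, 16. Between factors, the closest peaks inside the window were HNF4A at 58640132 and FOXA2 at 58644740, with centres 4566 bp apart. The peaks with scores of 32 each, the highest of either factor in this window, were 8841 bp apart.

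A shared site lay just outside the Foxa1 window. HNF4A at 58545218 to 58545754 (score 54, above 93.2% of its list) overlapped FOXA2 at 58545362 to 58545830 (score 30, above 86.4%), with centres 110 bp apart. The end of that FOXA2 peak is 4170 bp below the lower bound. HNF4A peaks of score 18 and 16 also lay between it and the window, 2313 and 1312 bp outside. The absence of shared sites at Foxa1 therefore rests on where the window begins, and with 50 kb added on each side there was 1 shared site, with 6 peaks of each factor. On the upper side the next HNF4A peak was 1398967 bp away and the next FOXA2 peak 302980 bp.

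At Foxa3 the highest peaks were of HNF4A alone. Its 90 kb window held 3 HNF4A peaks and 1 FOXA2 peak, with 1 shared site. The shared part was 33.3% of the HNF4A peaks (exact binomial interval 0.84 to 90.6%), against 24.4% of the whole HNF4A list. For the lone FOXA2 peak, which was shared, the interval was 2.5 to 100%, against 30.7% of the whole FOXA2 list. Both intervals include the value of the whole list, so these counts do not set Foxa3 apart from the lists. The gene, also on the minus strand, runs from about 19598600 to about 19608900. The HNF4A peak at 19598262 to 19598684 spans the lower of these bounds, the 3′ end of the gene, and had a score of 65. This was the highest HNF4A score in the 3 windows, rank 391 in the list, above 96.5% of it. A second peak, at 19601369 to 19601769, lay inside the gene with a score of 42, above 85.4% of the list. The nearest FOXA2 centres were 5268 and 8364 bp from these peaks.

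The shared site at Foxa3 was low in both lists. HNF4A at 19592727 to 19593452 (score 17, above 10.1% of its list) covered all of FOXA2 at 19593019 to 19593391 (score 12, above 16.5%), downstream of the gene. The HNF4A peak was 726 bp wide, against a list median of 430 bp, and the centres were 115.5 bp apart. At the start of Foxa3 neither list had a peak, in contrast to Foxa2, and the nearest HNF4A centre, that of the peak inside the gene, was about 7.33 kb downstream of it. A peak missing from a list does not show that the factor was absent, since both lists end at thresholds of unknown depth. In the RefSeq order the flanking genes are Irf2bp1 and Sympk, and the distances of these peaks to them were not analysed here.

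**Figure D1:**
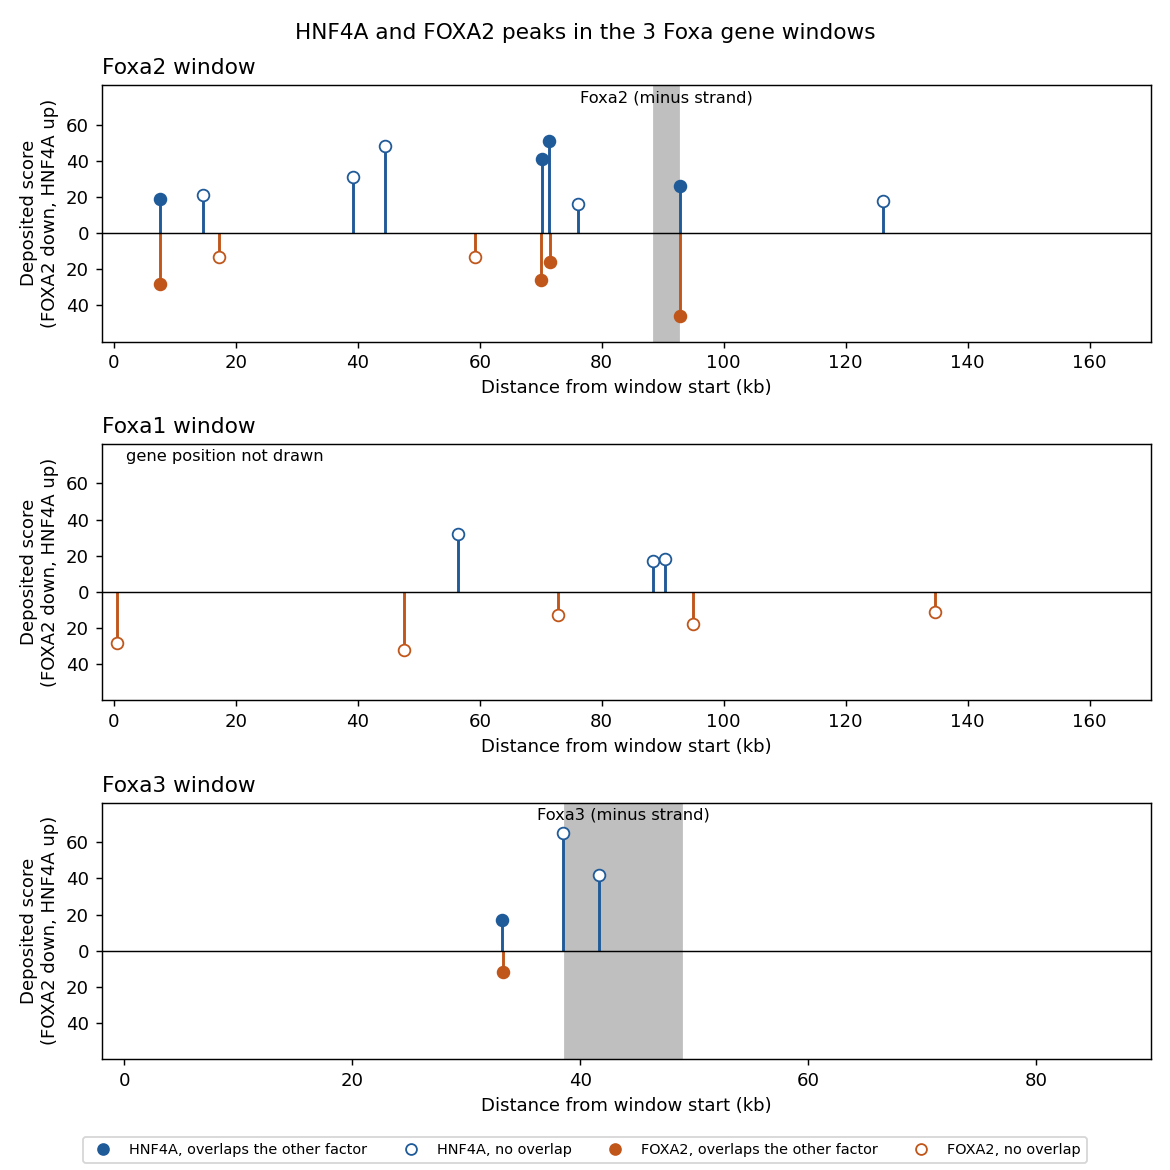
Peaks in the Foxa2, Foxa1 and Foxa3 windows, by distance from the window start in kb, with the deposited score upward for HNF4A and downward for FOXA2. Scores of the factors are not on a common scale; filled points overlap a peak of the other factor, grey marks Foxa2 and Foxa3 (the position of Foxa1 is not drawn), and 4, 0 and 1 sites carry both factors.

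The 27 peaks had scores of 16 to 65 for HNF4A, in a list that reaches 294, and of 11 to 46 for FOXA2, in a list that reaches 165. At or above the list median of 23 were 8 of 15 HNF4A peaks, where 52.5% of the whole list stands. At or above the median of 15 were 7 of 12 FOXA2 peaks, where 53.5% of the whole list stands. The median score was 26 for HNF4A and 17 for FOXA2 over the windows, so the genes' peaks as a whole were not set apart by score. Within the genes, HNF4A peaks had median scores of 26 at Foxa2 (16 to 51), 18 at Foxa1 (17 to 32) and 42 at Foxa3 (17 to 65). The FOXA2 medians were 21 at Foxa2 (13 to 46) and 18 at Foxa1 (11 to 32), and the lone peak at Foxa3 had 12. All these ranges overlap between genes except that the Foxa3 FOXA2 peak is below every FOXA2 peak at Foxa2.

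**Figure D2:**
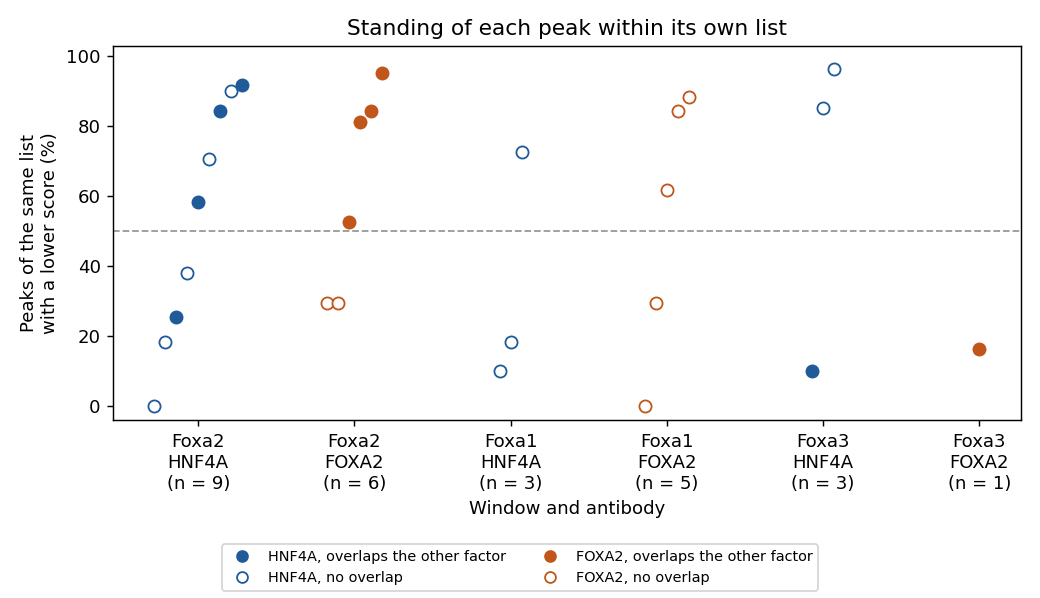
For each peak in the windows, the percent of peaks in its own list with a lower score (y axis), by gene and antibody; filled points overlap a peak of the other factor and the dashed line marks 50%. At Foxa2 the 4 shared FOXA2 peaks lie above the line and both single ones at 29.4%, whereas at Foxa3 the shared peaks are the low ones, at 10.1% and 16.5%.

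Few stretches of equal length held as many peaks as the Foxa2 window. The windows were chosen at genes, with earlier results of these data known. Nuclear chromosomes were divided into 15493 tiles of 170 kb and, for Foxa3, 29257 tiles of 90 kb. Of these, 67.2% and 77.9% held no HNF4A peak, and unmappable stretches were not removed. Both factors had a peak in 3455 of the 15493 longer tiles. Tiles were laid without regard to genes, so the shares below do not show how the windows compare with those of other genes. Of the longer tiles, 0.271% held at least 9 HNF4A peaks, 0.691% at least 6 FOXA2 peaks and 0.2% at least 4 shared pairs, the numbers in the Foxa2 window. At least 3 HNF4A peaks, as at Foxa1, were found in 10.6% of tiles, and at least 5 FOXA2 peaks in 1.43%. For Foxa3, 4.61% of the shorter tiles held at least 3 HNF4A peaks, 20.8% at least 1 FOXA2 peak and 8% at least 1 shared pair. Foxa2 and Foxa1 had 3.53 and 2.94 FOXA2 peaks and 5.29 and 1.76 HNF4A peaks per 100 kb. With 50 kb added on each side, the counts at Foxa2 and Foxa1 were 10 and 6 for FOXA2 and 11 and 6 for HNF4A, so the gap was then similar for both factors. Foxa3 had 3.33 HNF4A and 1.11 FOXA2 peaks per 100 kb. These are descriptions of 1 library each, and whether the genes differ in this was not tested.

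**Figure D3:**
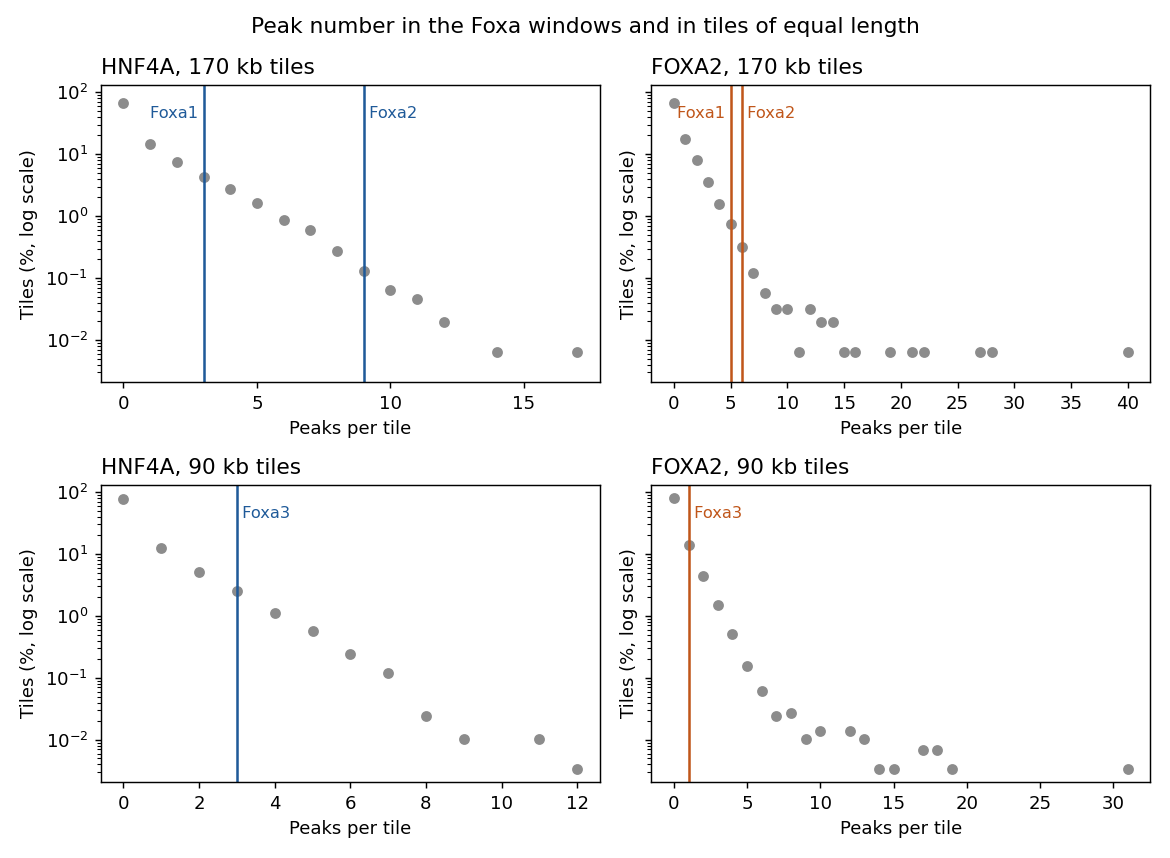
Percent of tiles (log scale) holding exactly the given number of HNF4A or FOXA2 peaks (grey points), for tiles as long as the Foxa1 and Foxa2 windows (170 kb) and the Foxa3 window (90 kb); lines mark the windows. The Foxa2 window has 9 HNF4A and 6 FOXA2 peaks, numbers reached or exceeded by 0.271% and 0.691% of tiles. The windows were chosen at genes and the tiles were not.

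The highest HNF4A score named here lay outside the Foxa2 window. At 147770021 to 147770499, 9501 bp below the window, HNF4A had a score of 102, rank 36 of its list, and a neighbour at 147768375 to 147768737 scored 50. Neither overlapped FOXA2, whose peak in that gap, at 147774913 to 147775148, had the lowest score of the list, 11. With 50 kb added on each side the Foxa2 window had 11 HNF4A and 10 FOXA2 peaks and still 4 shared sites. On the upper side the next peaks were 561381 bp away for HNF4A and 549148 bp for FOXA2. Around Foxa3 the nearest peak outside was a FOXA2 peak of score 23, 66757 bp above the window. The next HNF4A peaks lay 1957100 bp below and 482611 bp above.

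Input chromatin gave no region in any of the 3 windows, which is the background measured without antibody. The nearest input region was 1050 kb from the Foxa3 window, 9440 kb from the Foxa1 window and 22200 kb from the Foxa2 window. The input list holds 1263 regions over the whole genome, and 98.1% of 170 kb tiles and 98.9% of 90 kb tiles held none, so its absence here is the usual state. The depth of the 3 libraries is unknown. The lowest score is 16 in the HNF4A list and 11 in the FOXA2 list, and 10.1% and 16.5% of peaks stand there, so peaks of this strength at the Foxa genes, such as HNF4A at 147855869 and FOXA2 at 58684594, are the ones nearest to the threshold.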

How the data were processed

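ChIP-seq of HNF4A and FOXA2 and input chromatin were analysed from 1 list of regions per library. Each line holds a chromosome, start, end and a whole-number score, which the authors deposited without a header or definition. Coordinates refer to mm9, a build named in the submitters' processing notes. For the aligner, caller, threshold and depth, the sources used here state nothing. Positions were read as 1-based with both ends included. From these lists the peaks meeting each window, their rank by score, and overlap of at least 1 bp with the other factor were computed with Python 3.11.15, using pandas 2.3.3 and numpy 2.4.6, and plotted with matplotlib 3.10.9. Overlap counting was tested on simulated data. Shares carry exact (Clopper-Pearson) 95% intervals from scipy 1.17.1. Every peak in the windows is named, by a fixed rule. Of the nearest ones outside, only some are given. The genes, windows and lists were chosen with earlier results of these data known. The alternatives were a score threshold at the list median, wider or central windows, other definitions of overlap and 0-based positions. Peaks at other liver factor genes were not analysed here, as no mm9 annotation was used.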

Additional observations from a re-analysis of the deposited data

How the results depend on the processing

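Of 36 alternative values, 26 stayed within 1.5 times the reported count and 10 did not. Some of the 26 could not have moved. The 0 shared sites at Foxa1 stay 0 under any setting that only removes pairs or narrows the window. The central 90 kb at Foxa3 is its whole window, so the counts there were fixed. Reading positions as 0-based shortens each overlap by only 1 bp. With only scores at or above the list median, HNF4A peaks numbered 5 at Foxa2 and 1 at Foxa1, FOXA2 peaks 3 at Foxa1 and 0 at Foxa3, and shared sites 0 at Foxa3; fewer peaks enter by construction. With windows widened by 50 kb on each side, HNF4A peaks numbered 6 at Foxa1, FOXA2 peaks 10 at Foxa2 and shared sites 1 at Foxa1. With centres at most 100 bp apart as the definition, shared sites numbered 0 at Foxa3, whose centres are 115.5 bp apart. In the central 90 kb of each window, a setting chosen after seeing the data, FOXA2 peaks numbered 3 at Foxa1. Shared sites at Foxa2 stayed at 3 or 4 under each of these settings, with overlap of 50% of both peaks and with 0-based positions. No paired analysis was possible because each antibody has 1 library. The unknown depth limits every statement on a missing peak.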
